A study of Mus musculus with 24 samples.

Results

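The genes described here are 10 of the 24421 gene symbols in the count files, named because their RNA differed between the Cre-negative controls of the study's mouse lines. They are Gt(ROSA)26Sor, Nnt, Wdfy1, Hebp1, Fastkd1, Ifih1, Scn3a, Arl6ip6, Pdk1 and Arhgdib. The list was given the label of passenger genes, meaning genes that differ through strain background or through DNA flanking the modified loci and not through the modification. Gt(ROSA)26Sor is itself the insertion site of the transgene, so the label does not describe it. The genes were selected on the log2 difference between the control groups of the lines, so that difference is given below as a description without a test. The rule did not use the Cre-positive libraries, and the tests between lines rest on those.

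The study measured RNA by sequencing in conventional dendritic cells of type 1 (cDC1) and type 2 (cDC2), sorted from the spleens of untreated C57Bl/6 mice aged 6 to 12 weeks. The deletion line carried floxed Zeb2 (Zeb2fl/fl) and the transgene line carried Zeb2 inserted in Rosa26 (R26-Zeb2Tg/Tg), each with or without Cre driven by CD11c, an integrin gene active in dendritic cells. Each subset of each line had 2 libraries without Cre (littermate controls) and 4 with Cre, 24 libraries in 8 groups. All groups of a line share its modified locus, so mice without Cre still carry the floxed or the transgenic allele. The labels number the samples of a group and do not say whether each came from its own mouse, so a p-value here measures how these libraries spread, which may be technical.

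A modified mouse gene is carried with neighbouring DNA of the embryonic stem cells in which it was made, and repeated crossing to another strain removes distant DNA first. Substrains of C57BL/6 that were bred apart differ in a few genes, of which Nnt is the best known. Rosa26 is a widely used site for inserting transgenes because its own promoter is active in most cells. Zeb2 is a zinc finger repressor of transcription that acts in dendritic cell development.

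By position, 3 genes lie on chromosome 6 with the Rosa26 locus and 5 lie on chromosome 2 with Zeb2 (chr2:44983512-45117442), in the GRCm38.p6 assembly of RefSeq. Gt(ROSA)26Sor is a long noncoding RNA on the minus strand at chr6:113067428-113077244. Its end overlaps the end of Thumpd3 on the plus strand (chr6:113046302-113068278). Distances between genes are given between their lowest coordinates, whatever the strand. Hebp1 (chr6:135137519-135168215) and Arhgdib (chr6:136923655-136941899), both on the minus strand, lie 22.07 and 23.86 Mb from Gt(ROSA)26Sor. On chromosome 2, Arl6ip6 (chr2:53192084-53219221, plus strand) lies 8.21 Mb from Zeb2 and Ifih1 (chr2:62595618-62646255, minus strand) 17.61 Mb from it. Scn3a (chr2:65457118-65567591, minus strand), Fastkd1 (chr2:69686820-69712606, minus strand) and Pdk1 (chr2:71873215-71903858, plus strand) follow at 20.47, 24.7 and 26.89 Mb. Nnt (chr13:119335527-119409257) and Wdfy1 (chr1:79702262-79776143), both on the minus strand, are on chromosomes that hold neither locus. Apart from Gt(ROSA)26Sor, the genes code for proteins.

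The tables used here hold RefSeq promoter windows, the 250 bases before a transcript's start, for 6 of the 10 genes (9 windows). They are shown for Hebp1, which had the widest line difference with a window, Ifih1, which also rose with Cre, and Arhgdib, whose level in cDC1 differed between Cre states. Capitals mark the only match in these 3 windows to CACCTG, the E-box that ZEB proteins bind, searched on both strands and here read as CAGGTG on the gene's strand.
Hebp1, chr6:135168216-135168465, minus strand: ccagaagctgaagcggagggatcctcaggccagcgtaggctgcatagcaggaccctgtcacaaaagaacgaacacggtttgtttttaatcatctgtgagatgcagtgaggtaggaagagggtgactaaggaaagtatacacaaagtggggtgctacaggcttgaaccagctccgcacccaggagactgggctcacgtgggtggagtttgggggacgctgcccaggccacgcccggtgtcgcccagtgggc
Ifih1, chr2:62646256-62646505, minus strand: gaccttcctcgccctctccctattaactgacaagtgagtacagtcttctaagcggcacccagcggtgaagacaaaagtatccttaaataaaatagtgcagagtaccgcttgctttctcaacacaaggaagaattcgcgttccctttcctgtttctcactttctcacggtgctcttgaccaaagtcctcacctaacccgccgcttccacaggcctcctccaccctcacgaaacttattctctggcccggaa
Arhgdib, chr6:136941504-136941753, minus strand: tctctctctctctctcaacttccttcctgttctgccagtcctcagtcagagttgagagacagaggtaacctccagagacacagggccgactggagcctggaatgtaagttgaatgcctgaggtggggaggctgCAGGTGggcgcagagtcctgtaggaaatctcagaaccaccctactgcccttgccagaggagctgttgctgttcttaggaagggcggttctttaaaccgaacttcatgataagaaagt

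CACCTG was found in 1 of the 9 windows, 117 bases before that Arhgdib start, and in 17.2% of all 32851 windows of the table. The start in question lies inside the gene, and the match describes the sequence only.

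Total counts per library ranged from 21972763 to 36094786, and 13166 genes were tested, all 10 listed genes among them. Levels are CPM, gene counts scaled to a common library size with TMM factors, and a gene is called at a Benjamini-Hochberg adjusted p under 0.05 in edgeR's quasi-likelihood test over all 24 libraries. Zeb2 stood at 30.7 to 41.4 CPM in cDC2 of the deletion line with Cre against 132 to 176 without, and at 41.3 to 46.2 CPM in cDC1 of the transgene line with Cre against 2.36 to 3.25 without. The summed level of 8 cDC1 markers was 4090 to 8350 CPM in cDC1 and 146 to 332 in cDC2, and that of 8 cDC2 markers 119 to 698 in cDC1 and 2760 to 3830 in cDC2. B cell markers summed to 10.6 to 251 CPM and T cell markers to at most 8.08 CPM in any library, and their part in the results was not tested. In these sorted populations, fewer cells with a gene on and less of its RNA per cell cannot be told apart.

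Among the controls, 6 of the 10 genes passed the threshold in both subsets, 2 (Arl6ip6 and Arhgdib) in cDC1 only and 2 (Scn3a and Pdk1) in cDC2 only. That made 8 of 10 in each subset, where 0.129% of all tested genes passed in cDC1 and 0.137% in cDC2. These comparisons chose the genes and nothing is read from the shares. Arhgdib and Arl6ip6 carry the label on the cDC1 controls alone: in cDC2 controls Arhgdib differed between lines by 0.06 and Arl6ip6 by 0.12 on the log2 scale.

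Gt(ROSA)26Sor passed the filter on low counts through the deletion line only, so its difference between lines was bound to be seen and is given below without a test, while the other 9 genes pass the filter within either line. In the Cre-positive libraries, 7 of these 9 genes were called between the lines in cDC1, 4 higher and 3 lower in the transgene line, against 18.8% of all tested genes (9.72% higher and 9.09% lower). In cDC2, 7 of 9 were called, 5 higher and 2 lower, against 15.8% of all genes (8.2% higher and 7.63% lower). The median absolute log2 difference of the 9 genes was 1.74 in cDC1 and 2.08 in cDC2, beside 0.24 and 0.22 over all tested genes. In each subset, the 4 libraries of one line did not overlap the 4 of the other for 7 of the 9 genes, as was so for 19.8% of all genes in cDC1 and 21% in cDC2. In this comparison the lines also differ in the Zeb2 change that Cre induces, and for a single gene the line and that change cannot be told apart from these libraries alone.

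Gt(ROSA)26Sor, the noncoding transcript of the insertion site, was present in the deletion line and almost absent in the transgene line. In cDC1 of the deletion line it stood at 19.2 and 15.3 CPM without Cre and at 13.9, 11.7, 16.8 and 12.8 CPM with Cre. Transgene cDC1 had levels of 0.0402 and 0.394 CPM without Cre and of 0.036, 0.0847, 0.504 and 0.116 CPM with Cre. All 6 libraries of one line lay far above the 6 of the other. Deletion cDC2 had levels of 5.90 and 8.22 CPM without Cre and 10.0, 7.48, 9.40 and 9.56 CPM with Cre. Transgene cDC2 had levels of 0.112 and 0 CPM without Cre and 0.0377, 0.0376, 0.0415 and 0 CPM with Cre, again with no overlap. The fitted Cre-positive line difference was −6.22 on the log2 scale in cDC1 (SE 0.43) and −8.08 in cDC2 (SE 0.56). The transgene side rests on few reads, 20 counts over 4 cDC1 libraries, 13 of them in the library at 0.504 CPM, and 3 over 4 cDC2 libraries. Without that cDC1 library the difference there was −7.33. As ratios of counts scaled for depth, the difference was 77-fold in cDC1 (95% counting interval 49.6 to 126) and 316-fold in cDC2 (108 to 1530). The intervals cover counting error only. Thumpd3, whose last part overlaps Gt(ROSA)26Sor on the opposite strand, differed by −0.06 (SE 0.09, adjusted p = 0.739) in cDC1 and 0.14 (SE 0.09, adjusted p = 0.346) in cDC2. The strand setting of the counting is not given in the sources used here, so reads in the overlap cannot be assigned to a strand.

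Nnt, the mitochondrial transhydrogenase that makes NADPH from NADH, was lower in the transgene line. Its levels in deletion cDC1 were 114 and 112 CPM without Cre and 109, 105, 127 and 123 CPM with Cre. In transgene cDC1 its level was 35.3 and 38.9 CPM without Cre, and 34.6, 34.2, 34.6 and 35.7 CPM in the Cre-positive libraries. Every library of the transgene line was below every library of the deletion line. In cDC2 the deletion line spanned 85.6 to 99.1 CPM over its 6 libraries and the transgene line 22.7 to 36.5 CPM, without overlap. The Cre-positive difference was −1.74 in cDC1 (SE 0.08, adjusted p = 5.68e-12, a 3.34-fold ratio of means) and −1.40 in cDC2 (SE 0.08, adjusted p = 8.12e-11, 2.65-fold).

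Wdfy1 codes for a WD-repeat protein with a FYVE domain that acts as an adaptor downstream of Toll-like receptors, and it too was lower in the transgene line. In cDC1 the deletion line stood at 31.9 and 35.9 CPM without Cre and 27.7, 28.6, 32.9 and 27.6 CPM with Cre, and the transgene line at 3.42 and 5.42 CPM without Cre and 4.60, 4.24, 2.98 and 3.56 CPM with Cre. In cDC2 the deletion line stood at 18.7 and 20.1 CPM without Cre and 22.5, 22.3, 22.4 and 19.3 CPM with Cre, and the transgene line at 4.78 and 6.27 CPM without Cre and 4.78, 5.68, 5.10 and 4.87 CPM with Cre. The lines did not overlap in either subset. The difference was −2.92 in cDC1 (SE 0.15, adjusted p = 1.01e-11) and −2.08 in cDC2 (SE 0.14, adjusted p = 9.64e-10). Wdfy1 overlaps Mrpl44 in the annotation, so reads in the overlap are uncertain.

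**Figure D1:**
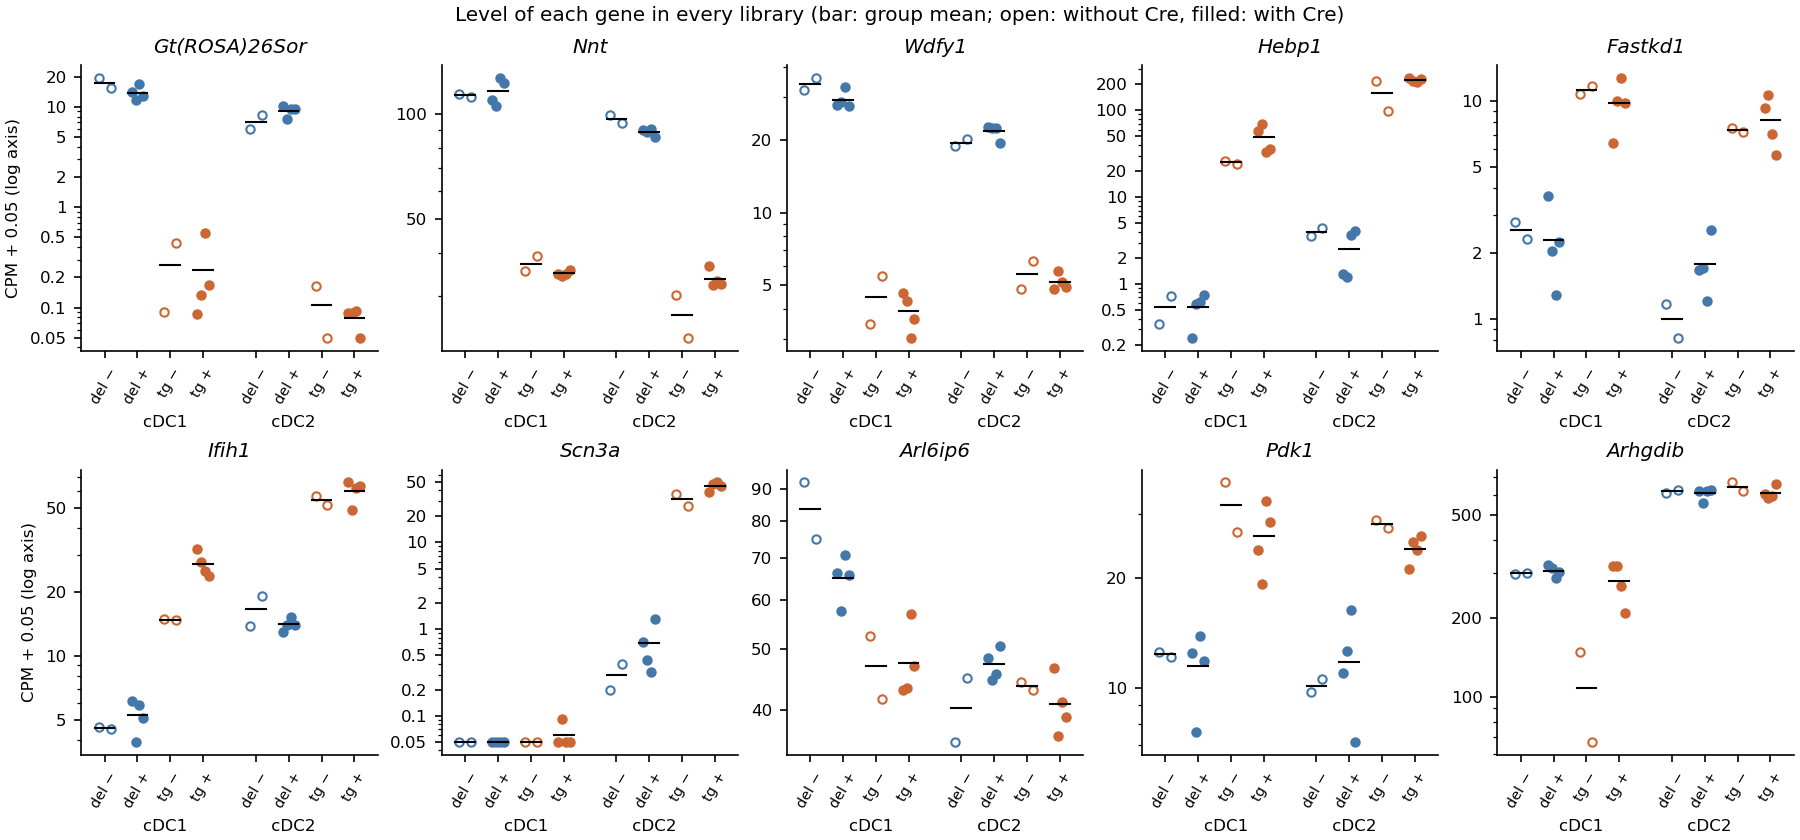
Each panel plots 1 gene and each point 1 library, with the level in CPM plus 0.05 on a log axis, blue for the deletion line (del), orange for the transgene line (tg), open points without Cre, filled points with Cre and black bars for group means. Gt(ROSA)26Sor, Nnt, Wdfy1, Hebp1, Fastkd1 and Pdk1 separate all 12 libraries of one line from the 12 of the other, Scn3a separates them in cDC2, and Arhgdib is low in the 2 transgene control libraries of cDC1.

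Hebp1, a heme-binding protein whose amino end yields a chemotactic peptide, had the largest increase among the genes measured in both subsets. Hebp1 was near 0 in deletion cDC1, at 0.300 and 0.672 CPM without Cre and 0.19, 0.54, 0.573 and 0.69 CPM with Cre. Transgene cDC1 had 26.2 and 23.9 CPM without Cre and 57.5, 69.4, 33.1 and 36.1 CPM with Cre. The lowest transgene library was thus above every deletion library by a wide margin. Deletion cDC2 had 3.51 and 4.30 CPM without Cre and 1.24, 1.15, 3.60 and 3.99 CPM with Cre. In transgene cDC2 it reached 216 and 98.4 CPM without Cre and 234, 218, 210 and 227 CPM with Cre. The line difference with Cre was 6.63 in cDC1 (SE 0.42, adjusted p = 1.59e-10, a 98.3-fold ratio of means) and 6.47 in cDC2 (SE 0.36, adjusted p = 2.53e-11, 89.2-fold).

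Among the genes on chromosome 2, Ifih1 codes for MDA5, the cytosolic sensor of long double-stranded RNA that starts the interferon response to some viruses. The deletion line had, in cDC1, 4.58 and 4.45 CPM without Cre and 6.06, 3.87, 5.82 and 5.04 CPM with Cre. The transgene line had 14.8 and 14.6 CPM there without Cre and 31.7, 27.8, 25.0 and 23.8 CPM with Cre. The lines did not overlap, and within the transgene line the Cre-positive libraries lay above the controls. Levels in deletion cDC2 were 13.8 and 19.1 CPM without Cre and 12.9, 14.0, 15.2 and 13.9 CPM with Cre. Levels in transgene cDC2 were 56.5 and 51.5 CPM without Cre and 65.6, 48.9, 61.7 and 63.3 CPM with Cre, all above the deletion line. The Cre-positive difference was 2.38 in cDC1 (SE 0.14, adjusted p = 8.7e-11, 5.21-fold) and 2.09 in cDC2 (SE 0.13, adjusted p = 3.26e-10, 4.27-fold).

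Scn3a, the pore-forming subunit of a voltage-gated sodium channel known from neurons, was found in cDC2 of the transgene line and hardly elsewhere. It had 0 counts in 11 of the 12 cDC1 libraries and 1 count in the other. Deletion cDC2 held a trace, 0.149 and 0.346 CPM without Cre and 0.659, 0.396, 0.271 and 1.28 CPM with Cre. In transgene cDC2 it reached 36.0 and 26.6 CPM without Cre and 38.1, 47.4, 49.2 and 44.8 CPM with Cre. The lowest transgene cDC2 library was above the highest deletion library. The Cre-positive difference in cDC2 was 6.10 (SE 0.32, adjusted p = 7.21e-10, a 69-fold ratio of means). No line difference can be measured in cDC1, where both lines are at or under the floor of 3 counts per library.

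Fastkd1, a mitochondrial RNA-binding protein of the FASTK family, and Pdk1, a kinase that inhibits pyruvate dehydrogenase and so limits the entry of pyruvate into mitochondria, were both higher in the transgene line. Over its 12 libraries Fastkd1 spanned 5.62 to 12.7 CPM in the transgene line and 0.769 to 3.62 CPM in the deletion line. Its Cre-positive difference was 2.09 in cDC1 (SE 0.29, adjusted p = 1.32e-05) and 2.22 in cDC2 (SE 0.29, adjusted p = 1.26e-05). Pdk1 spanned 19.2 to 36.5 CPM in the transgene line and 7.08 to 16.4 CPM in the deletion line. Its Cre-positive difference was 1.19 in cDC1 (SE 0.20, adjusted p = 0.000202) and 1.03 in cDC2 (SE 0.20, adjusted p = 0.0011). Neither gene's lines overlapped over the 12 libraries of each.

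The remaining genes, Arl6ip6 and Arhgdib, did not show a difference that ran through both subsets. Arl6ip6, a membrane protein that binds the small GTPase ARL6, stood in cDC1 at 66.2, 57.4, 70.8 and 65.7 CPM in the deletion line with Cre. The transgene line with Cre had levels of 43.0, 43.3, 56.8 and 47.0 CPM. The groups did not overlap, though the nearest libraries lay close, and the difference was −0.45 (SE 0.11, adjusted p = 0.00526). In cDC2 Arl6ip6 spanned 44.5 to 50.5 CPM in the deletion line with Cre and 36.3 to 46.7 CPM in the transgene line with Cre, which overlap, with a difference of −0.21 (95% interval −0.44 to 0.02, adjusted p = 0.216).

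Arhgdib, a gene known for its high expression in blood cells, stood in cDC1 of the deletion line at 297 and 299 CPM without Cre and at 321, 313, 286 and 302 CPM with Cre. Transgene cDC1 had 148 and 66.8 CPM without Cre and 319, 318, 267 and 210 CPM with Cre. The pair of control libraries were low and unlike each other, and the Cre-positive libraries of the lines overlapped. The Cre-positive line difference in cDC1 was −0.13 (95% interval −0.45 to 0.18, adjusted p = 0.599). In cDC2 it was 0.01 (95% interval −0.31 to 0.32, adjusted p = 0.987), with all 12 libraries of the subset between 559 and 669 CPM. The difference that placed Arhgdib on the list was thus seen in 1 of the 4 comparisons between lines, and there in controls with 2 libraries a line.

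**Figure D2:**
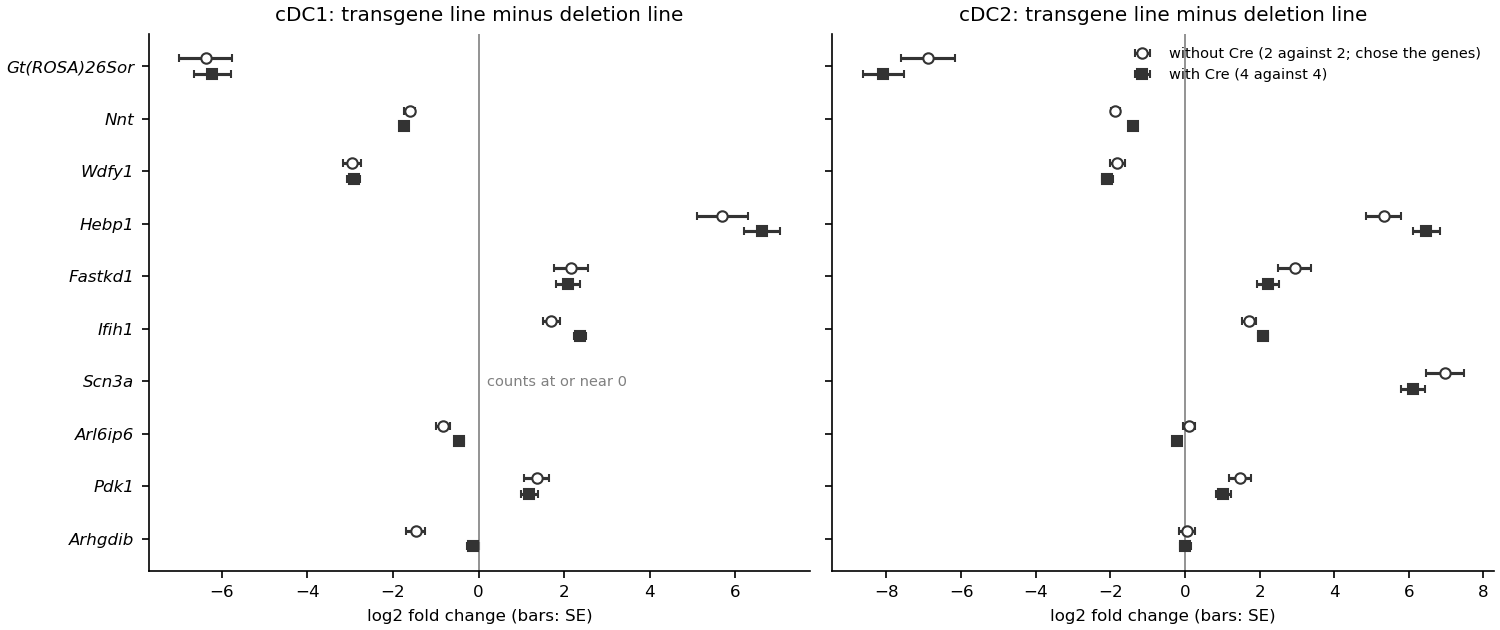
Points are the fitted log2 difference of the transgene line minus the deletion line for each gene in cDC1 (left) and cDC2 (right), open circles without Cre (2 against 2 libraries, the comparison that chose the genes), filled squares with Cre (4 against 4), and bars the SE. Hebp1 lies at 5.33 or above in all 4 comparisons and Gt(ROSA)26Sor at −6.22 or below, while Arhgdib in cDC1 moves from −1.47 without Cre to −0.13 with Cre.

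An exact two-sided permutation test of log2 CPM over 4 against 4 libraries, whose smallest possible p is 0.0286, gave that value for each of the 14 called differences of the other 9 genes with Cre. It gave 0.371 and 0.857 for Arhgdib in cDC1 and cDC2 and 0.0857 for Arl6ip6 in cDC2. The size of the Cre-positive line difference was compared between the subsets as an interaction, in which 6.58% of all genes were called. Wdfy1 was the 1 listed gene called, with a difference smaller in cDC2 by 0.84 on the log2 scale (SE 0.20, adjusted p = 0.0112). The next was Nnt at 0.33 (SE 0.12, adjusted p = 0.0921). For Hebp1 the interaction was −0.15 with a 95% interval of −1.33 to 1.02, so unequal line differences of up to that size cannot be told from equal ones.

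The levels of several of the genes also depended on the subset. Control libraries of the subsets were compared as an average over the lines, in another contrast of the libraries that also chose the genes. Arhgdib is given without a test here, since its low transgene cDC1 controls enter the average. Of the other 9 genes, 7 were called, 3 higher and 4 lower in cDC2, against 53.4% of all genes (27.6% higher and 25.8% lower). The 3 higher include Scn3a, which had 0 counts in all control cDC1 libraries and passed the filter through cDC2 only. Its call was bound to be seen and is not read as a result. Ifih1 was higher in cDC2 by 1.87 (SE 0.14, adjusted p = 7.07e-11) and Hebp1 by 2.83 (SE 0.38, adjusted p = 1.1e-06). Arhgdib averaged 619 CPM in cDC2 and 298 CPM in cDC1 in the deletion controls. Scn3a was at least 233-fold higher in transgene cDC2 controls than in transgene cDC1 controls, computed against the floor of 3 counts per library. In the deletion controls it was at least 2.07-fold higher by the same floor. Arl6ip6 was lower in cDC2 by 0.58 on the log2 scale (SE 0.11, adjusted p = 0.000118), Nnt by 0.36 (SE 0.08, adjusted p = 0.000751) and Fastkd1 by 1.01 (SE 0.29, adjusted p = 0.00541). Gt(ROSA)26Sor was also called lower in cDC2, at −1.55 (SE 0.60, adjusted p = 0.0341), a call lost with limma-voom (adjusted p = 0.0905) and in 4 of the 8 fits that left out 1 control library, among them −0.45 (adjusted p = 0.769) without the transgene cDC1 library at 0.394 CPM. Wdfy1 (−0.24, adjusted p = 0.173) and Pdk1 (−0.23, adjusted p = 0.356) were not called.

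Within a line, Cre was compared with no Cre to see which of the genes moved with Cre. Mice with Cre differ from controls in the Cre transgene as well as in Zeb2. No group had Cre without a modified allele, so these cannot be told apart. The control libraries of this comparison also chose the genes, so it is not independent of the choice. In cDC1 of the transgene line, where Cre turns on Zeb2, 1 of the 9 genes other than Arhgdib was called, Ifih1, against 7% of all genes (3.58% higher with Cre). Ifih1 was 1.84-fold higher with Cre, a log2 difference of 0.88 (SE 0.17, adjusted p = 0.00141), and the 4 Cre-positive libraries lay above both controls. Arhgdib averaged 278 CPM with Cre and 107 CPM without, a fitted log2 difference of 1.37 (SE 0.20). The low pair of controls put the gene on the list, so a rise from them follows from the choice and carries no test. Without the control at 66.8 CPM its difference was 0.91 and without the control at 148 CPM it was 2.07. Hebp1 did not overlap between Cre states either, at 0.97 (SE 0.35, adjusted p = 0.105), where 25.2% of all genes did not overlap.

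Markers of the other subset moved in the same comparison. The 8 cDC2 markers summed to 373 to 698 CPM in cDC1 of the transgene line with Cre and 119 to 122 CPM without, and all 8 were called higher, while 4 of 8 cDC1 markers were called lower. Of the other types, the summed plasmacytoid dendritic cell markers were lower with Cre, at 27.9 to 46.7 CPM against 62.6 to 64.5 without, and so were the B cell markers, at 10.6 to 24.4 against 32.6 to 49.7 CPM, neither with overlap. The monocyte markers summed to 166 to 263 CPM with Cre and 58.1 to 221 without, and the macrophage markers to 103 to 195 and 82.5 to 107 CPM, both with overlap. None of these lists had a defining marker at 0 in either group, and their part in the levels of Ifih1 and Arhgdib was not tested. Ifih1 was also called higher in the controls of cDC2 than in those of cDC1.

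With Cre in the other 3 settings, edgeR called none of the 10 genes. In cDC2 of the transgene line, where 0.327% of all genes were called, 1 of the 10 had an unadjusted p under 0.05, Nnt at 0.34 (SE 0.10, adjusted p = 0.207). In cDC1 of the deletion line, where 0.0228% were called, Arl6ip6 did, at −0.36 (SE 0.13, adjusted p = 0.972). In cDC2 of the deletion line, where 5.21% were called, Fastkd1 (0.88, adjusted p = 0.245) and Scn3a (1.39, adjusted p = 0.194) did. DESeq2 and limma-voom, with or without a replicate block, also called 0 of the 10 in these 3 settings. With 2 control libraries a group, a change too small for such a design would not be seen, and for Gt(ROSA)26Sor in transgene cDC2 the 95% interval of the Cre effect ran from −3.60 to 1.98.

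**Figure D3:**
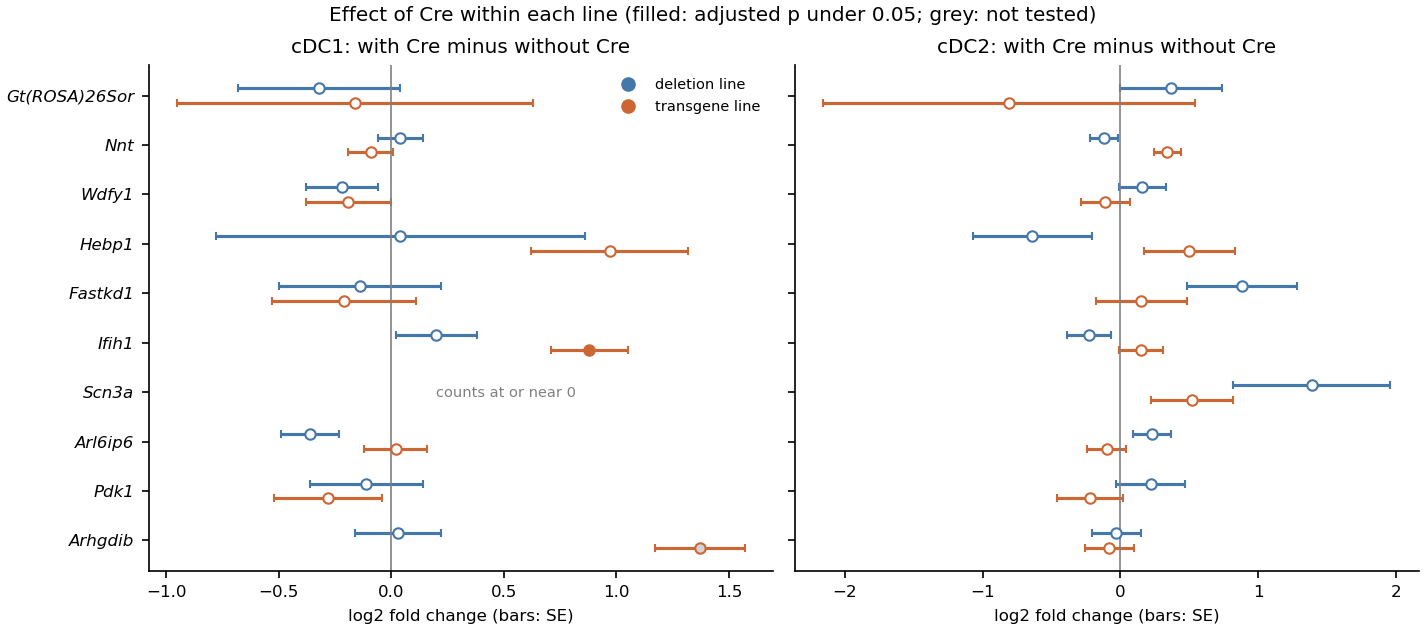
Points are the fitted log2 difference with Cre minus without Cre (4 against 2 libraries) for each gene in cDC1 (left) and cDC2 (right), blue for the deletion line and orange for the transgene line, filled in the line's colour where the adjusted p is under 0.05, with bars for the SE. The 1 filled point is Ifih1 at 0.88 in cDC1 of the transgene line, and the grey point there is Arhgdib at 1.37, whose controls chose it and which carries no test.

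The sensors most like MDA5 were followed for comparison. Ddx58, which codes for the RNA sensor RIG-I, rose by 4.90 with Cre in cDC1 of the transgene line (SE 0.47, adjusted p = 2.7e-07), from 0.581 to 17.4 CPM on average. Dhx58, which codes for the related LGP2, rose there by 0.51 (SE 0.16, adjusted p = 0.0469). While Ifih1 separated the lines in both subsets, the Cre-positive line difference of Ddx58 was 3.36 in cDC1 (SE 0.29, adjusted p = 2.43e-08) and −0.30 in cDC2 (SE 0.23, adjusted p = 0.421). That of Dhx58 was 0.33 in cDC1 (adjusted p = 0.0683) and −0.20 in cDC2 (adjusted p = 0.318).

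Of 39 paralogues, partners and neighbours of the 10 genes, 31 were tested. Between the Cre-positive lines 6 were called in cDC1 (19.4%, beside 18.8% of all genes), 4 higher and 2 lower in the transgene line, with a median log2 difference of 0.05 beside 0 over all genes. In cDC2 4 were called (12.9%, beside 15.8%), 3 higher and 1 lower, with a median of 0.03 beside 0. These shares lie near those of all genes, and the genes called are named as a description. The 2 lower in cDC1 were Wdfy4, at −0.69 (SE 0.11, adjusted p = 6.59e-05), and Setd5, a neighbour of Rosa26, at −0.51 (SE 0.14, adjusted p = 0.0107). Wdfy4, listed for the name it shares with Wdfy1, is needed for cross-presentation by cDC1. The 4 higher were Ddx58, Idh2 (0.34), Arl6ip1 (0.24) and Arl6ip5 (0.32). In cDC2 Wdfy4 was lower by 0.70 on the log2 scale (SE 0.11, adjusted p = 8.95e-05), and Txn2 (0.21), Gsr (0.34) and Fastkd2 (0.45) were higher. Idh2 is a mitochondrial enzyme that makes NADPH, Gsr uses NADPH to reduce glutathione and Txn2 is the mitochondrial thioredoxin.

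Of 9 genes reported to differ between C57BL/6 substrains, 6 were tested, Nnt and Wdfy1 among them. Nnt and Wdfy1 were chosen for their line difference, which leaves 4 genes. In Cre-positive cDC1 2 of these 4 were called, both lower in the transgene line, where 18.8% of all genes were called (9.09% lower), and their median was −0.58 beside 0 over all genes. They were Fgfbp3, a carrier of fibroblast growth factors, at −1.31 (SE 0.40, adjusted p = 0.0227), and Cyfip2, a subunit of the actin-regulating WAVE complex, at −0.34 (SE 0.09, adjusted p = 0.00685). In Cre-positive cDC2 1 of the 4 was called, Ide, the insulin-degrading enzyme, higher by 0.42 (SE 0.09, adjusted p = 0.0026), with a median of 0.28 over the 4 and 15.8% of all genes called. Fgfbp3 did not keep its direction, at 0.94 (adjusted p = 0.162) in Cre-positive cDC2 and, in the controls, 0.59 in cDC1 and −0.15 in cDC2. In the controls Ide differed between lines by −0.03 in cDC1 and −0.08 in cDC2, and Cyfip2 by 0.06 and −0.02. Of the 6, Nnt and Wdfy1 alone were among the genes that passed the threshold in the controls of either subset.

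How rare the pattern of the genes is can be given over the whole table. Called in all 4 line comparisons with 1 sign were 6 of 13166 genes (0.0456%), and all 6 are on the list: Gt(ROSA)26Sor, Nnt and Wdfy1 lower in the transgene line and Hebp1, Fastkd1 and Ifih1 higher. Since the list was drawn from 2 of those comparisons, this is a description. The 12 libraries of each line, over both subsets and Cre states, did not overlap for 15 of 13166 genes (0.114%), of which 6 are listed (Gt(ROSA)26Sor, Nnt, Wdfy1, Hebp1, Fastkd1 and Pdk1). The other 9, singled out after their values were seen, were 1700112E06Rik, Camk2b, Ccdc134, Gcnt4, Gm17821, Gucy2c, Klra10, Smim10l1 and Ywhah. Of these, Gucy2c, Klra10 and Smim10l1 are on chromosome 6, 23.63, 17.2 and 20.03 Mb from Rosa26. Ifih1 separated the lines within each subset but not over both, because its level in deletion cDC2 reached that in transgene cDC1.

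The surroundings of the modified loci were then described over all tested genes with a position. Among controls, 29 genes passed the threshold in one subset or the other, the 10 listed genes and 19 more. Within 30 Mb of Zeb2 or Rosa26 lay 14 of the 29, while 5.33% of all tested genes lie there. Of the 19 others 6 did, all on the Rosa26 side: BC064078, Dusp16, Etv6, H2afj, Klrc1 and Klri1. The control comparison chose the listed genes, and the Cre-positive libraries were therefore counted too. Within 30 Mb of Rosa26, 39 of 372 tested genes (10.5%) were called in both Cre-positive comparisons with 1 sign, and within 30 Mb of Zeb2 22 of 330 (6.67%), against 6.39% of all genes. Without the listed genes these were 37 of 369 (10.0%) and 19 of 325 (5.85%).

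The Rosa26 share was uneven along the chromosome. From 10 to 20 Mb beyond Gt(ROSA)26Sor, on the side of Hebp1 and Arhgdib, 16.7% of 102 genes were called, and from 20 to 30 Mb 25.6% of 43. In the nearest 10 Mb on that side it was 4.3% of 93. That distal stretch holds the Clec and Klr receptor clusters, whose expression differs between immune cell types. Without its 32 Clec and Klr genes, 23 of 113 (20.4%) were called. The 113 still include the listed genes Hebp1, which was called, and Arhgdib, both chosen by the control comparison. In the controls, the median absolute log2 line difference of those 113 genes was 0.19, beside 0.13 over all genes. Beyond Zeb2, on the side of the listed genes, 9 of 70 genes between 10 and 30 Mb were called (12.9%), and 6 of 66 (9.09%) without the listed genes. By this share the stretch does not stand apart on its chromosome. Farther than 30 Mb from Zeb2, bins of 10 Mb with at least 20 genes ran from 2.5 to 12.4%. Of these 12 bins 4 were above 11%, and the share over all genes there was 8.6%. In the controls, the median absolute log2 line difference of the 70 genes was 0.24, beside 0.13 over all genes. They include listed genes, which that comparison chose. The median was 0.29 from 10 to 20 Mb and 0.23 from 20 to 30 Mb, and at most 0.21 in bins farther out. Neighbouring genes can share regulation and haplotype, so these shares and medians carry no test.

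**Figure D4:**
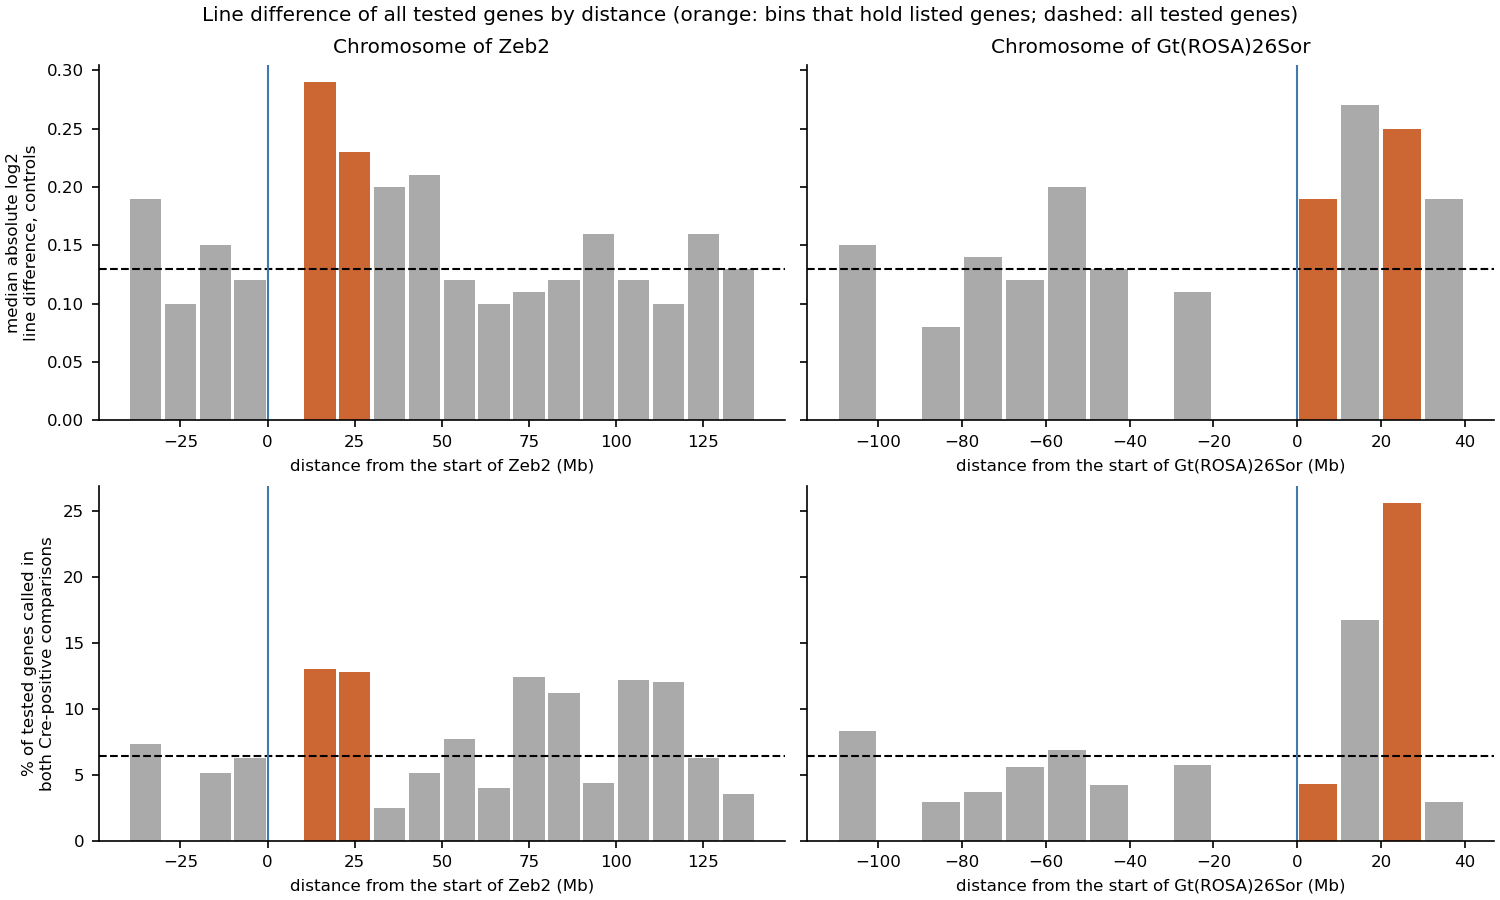
Bars are bins of 10 Mb along the chromosome of Zeb2 (left) and of Gt(ROSA)26Sor (right) that hold at least 20 tested genes, by distance from the locus (blue line). The upper panels show the median absolute log2 line difference among controls and the lower panels the percent of tested genes called in both Cre-positive comparisons, orange where a bin holds a listed gene, dashed for all tested genes (0.13 and 6.39%), and the 20 to 30 Mb bin beyond Gt(ROSA)26Sor reaches 25.6%.

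For each listed gene, the gene off the list with the most similar pattern was found as the one with the highest Pearson correlation of log2 CPM over the 24 libraries after the subset mean was subtracted. The libraries share line and Cre state, so these values are descriptions. Etv6, a transcriptional repressor whose gene lies 20.97 Mb beyond Rosa26, was the gene off the list most like Gt(ROSA)26Sor (r = 0.928), Nnt (0.932) and Wdfy1 (0.961). Etv6 averaged 271 and 283 CPM in deletion cDC1 without and with Cre, and 179 and 174 CPM in transgene cDC1. Smim10l1, also near Rosa26, was most like Pdk1 (0.931), 8430419L09Rik most like Ifih1 (0.924) and Klrc3 most like Scn3a (0.890). Klrc3 averaged at most 0.583 CPM in any group, so its value rests on few reads. In all, the most similar gene off the list lay within 30 Mb of Rosa26 for 6 of the 10, on a different chromosome from the listed gene in each of these 6 except Gt(ROSA)26Sor. For the other 4 it was Aacs (Hebp1, 0.943), Ccdc134 (Fastkd1, 0.892), Rab5a (Arl6ip6, 0.831) and Il31ra (Arhgdib, 0.848). With the listed genes counted as candidates, another listed gene was the most similar for 6 of the 10: Nnt for Gt(ROSA)26Sor (0.977) and Wdfy1 (0.964), Gt(ROSA)26Sor for Nnt, and Ifih1 and Hebp1 for each other (0.969), with Hebp1 also for Fastkd1 (0.897).

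The line of a library, its colony, its modified allele and the DNA around that allele go together in this design. For the 10 genes they cannot be told apart from these libraries alone. By position, Nnt and Wdfy1 lie on chromosomes that hold neither locus, and the cause of their line difference was not tested.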

How the data were processed

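The deposited files hold whole-number counts per gene symbol, made by the authors and not scaled. The submitters' processing notes name TopHat2 2.1.0, Trimmomatic 0.35, SAMtools 0.1.18, FastQC 0.11.4 and the mm10 build. How reads were counted (program, gene annotation, strand) is not given in the sources used here. RNA (4 ng) was amplified with SMART-Seq v4 before libraries of 15 PCR cycles were read at 75 bp, per the labels' protocols. The lines of each file that name no gene were left out, with no-feature reads at 10.4 to 15.7% and ambiguous reads at 0.970 to 1.09% per library.

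Groups came from the labels. In R 4.3.3, edgeR 4.0.16 kept 13166 genes (filterByExpr, minimum count 10, minimum total 15), scaled by TMM (factors 0.925 to 1.07) and fitted 8 group means to the 24 libraries. Line differences are the transgene line minus the deletion line. Alternatives were limma 3.58.1 (voom, with and without a replicate block), DESeq2 1.42.0, other filters, scalings and library sets, and windows of 10 Mb in place of 30 Mb. The log2 CPM had a prior count of 2 for correlations and 0.5 for the exact test. Replicates of a group differed beyond sampling noise in all 28 pairs (chi-square per gene 10.1 to 51.1). The fit was tested on simulated counts. The 10 genes and all lists were chosen with earlier results of these data known. All 10 were named, with list members called between Cre-positive lines and the gene off the list most correlated with each. No gene off the list was called in all 4 line comparisons with 1 sign.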

Additional observations from a re-analysis of the deposited data

Results flagged for a closer look

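Of 37 sets, each the 4 libraries of a Cre-positive group for 1 gene, 3 had a library that stood apart from the other 3 by more than Dixon's test allows. Chance alone gives such a gap in about 1 in 20 sets, and the sets here share libraries. For Gt(ROSA)26Sor in cDC1 of the transgene line with Cre, 1 library was at 0.504 CPM and the others at 0.036 to 0.116, a gap of 82.9% of the group's range, all far below the deletion line. For Wdfy1 in cDC2 of the deletion line with Cre, 1 library was at 19.3 CPM and the others at 22.3 to 22.5, a gap of 92.8% of the range. For Arhgdib in the same group, 1 library was at 559 CPM and the others at 619 to 627, a gap of 87.0% of the range.

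The line difference of Wdfy1 with Cre was unequal in the subsets, smaller in cDC2 than in cDC1 by 0.84 on the log2 scale in edgeR's test of the interaction (adjusted p = 0.0112). It stayed between 0.74 and 0.94 when any 1 of the 16 libraries was left out, with adjusted p at most 0.0288.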

How the results depend on the processing

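Over all alternatives, the tested values of the 10 genes outside the control line comparisons kept direction and call in 1015 of 1055 cases, with 7 calls lost, 2 gained and 31 changes of sign. Each of the 14 Cre-positive line calls and the Cre-effect call of Ifih1 held throughout. All 7 lost calls were the subset difference of Gt(ROSA)26Sor. The gained calls were Nnt in the interaction (DESeq2, 0.35, adjusted p = 0.0475) and Wdfy1 in the subset difference (−0.39 without transgene cDC1 control 1, adjusted p = 0.0327). The cause was not tested.

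The number of genes past the threshold moved more. In control cDC1 it was 17, and 53 with DESeq2, 6 with only the groups of the comparison and 8 to 12 with 1 library left out. In control cDC2 it was 18, and 70 with DESeq2, 30 with no filter, 85 with only the groups of the comparison and 9 to 12 with 1 library left out. For Cre in transgene cDC1 it was 922, and 550 with only those groups and 476 to 982 with 1 library left out (584 and 476 without either control). For Cre in transgene cDC2 it was 43, and 119 with DESeq2, 69 with voom, 71 with no filter and 18 to 45 with 1 library left out (21 and 18 without either control). For Cre in deletion cDC1 it was 3, and 7 with DESeq2, 1 with only those groups and 1 to 4 with 1 library left out (1 without control 2). For Cre in deletion cDC2 it was 686, and 142 to 673 with 1 library left out (142 and 349 without either control).

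Near the loci, the share called in both control comparisons was 0.606% within 30 Mb of Zeb2, and 0 within 10 Mb or without the listed genes. Around Rosa26 it was 0.538%, and 0 without the listed genes. The share called in both Cre-positive comparisons around Rosa26 was 10.5%, and 3.74% within 10 Mb.

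Same-numbered samples of the subsets correlated in their deviations from the group means at −0.008 and 0.035 in the controls, at 0.101 to 0.111 in the transgene line with Cre and at 0.076 to 0.17 in the deletion line with Cre. All 4 pairs passed 0.1 in the former, 3 of 4 in the latter and 0 in the controls, and 10 of 12 numbers correlated best with their own, so the numbers may pair the Cre-positive samples. The interaction, which compares those samples across subsets, kept its call of Wdfy1 with the block (0.86, adjusted p = 0.00952). With the replicate block (correlation 0.121) the count for Cre in transgene cDC2 was 73. Of the values of the 10 genes, 68 kept direction and call under the block, and 2 did not: the subset difference of Gt(ROSA)26Sor (−1.49, adjusted p = 0.0739) and the interaction of Hebp1, which turned from −0.15 to 0.05, as it did without the block (0.05).

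Other changes of sign came from leaving out 1 library, all in values that were not called above. In the line comparisons these were Arl6ip6 in control cDC2 (−0.04 to 0.30) and Arhgdib in Cre-positive cDC2 (−0.03 to 0.03). For Cre in transgene cDC1 they were Gt(ROSA)26Sor (−1.27 to 2.05), Wdfy1 (−0.48 to 0.17) and Arl6ip6 (−0.14 to 0.20). For Cre in transgene cDC2 they were Gt(ROSA)26Sor (−1.79 to 2.79) and Wdfy1 (−0.30 to 0.09). For Cre in deletion cDC1 they were Nnt (−0.01 to 0.08), Hebp1 (−0.46 to 0.71), Fastkd1 (−0.47 to 0.06) and Pdk1 (−0.21 to 0.05). For Cre in deletion cDC2 they were Ifih1 (−0.45 to 0.02) and Arhgdib (−0.05 to 0.01). In the interaction they were Hebp1 (−0.39 to 0.16), Fastkd1 (−0.20 to 0.36) and Pdk1 (−0.33 to 0.05). Depth limits Gt(ROSA)26Sor in the transgene line and Scn3a in cDC1, and 2 control libraries a group limit every comparison with controls.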
